A study of Mus musculus with 7 samples.

Results

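The RNA of wild-type LK progenitors from the mouse fetal liver was set against that of wild-type LSK cells from the same organ. The comparison uses 4 of the 7 libraries of the study, the single LK library and the 3 LSK libraries, chosen by their titles. Of the 22680 genes in the deposited table, 8029 were compared, those with at least 5 FPKM (a read density corrected for gene length and sequencing depth) in LK or in the LSK mean. Dync1li2 (5.003 FPKM) and Mbd4 (5.004) were just inside that limit, and Kdsr (4.9999) and Vps54 (4.9998) just outside it. A gene was called higher when the LK value lay at least 2-fold, on the log2(FPKM + 1) scale, above the highest of the 3 LSK libraries, and lower when it lay at least 2-fold below the lowest. With 1 LK library there is no replicate error for LK and no p-value, so a call compares these libraries and not the populations. The spread between the 3 LSK libraries is the only measure of error.

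All 4 libraries came from wild-type C57BL/6 fetuses at 13.5 days post coitum. The rest of the study, not compared here, is 3 libraries of LSK cells from Uhrf1-/- fetuses. Cells were sorted through 2 rounds before RNA extraction and TruSeq library preparation. The protocol in the labels describes the LSK sort and gives no gate for LK, and nothing says which animals or litters went into a library.

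Blood is made mainly in the liver at this stage of development, and most of the output is red cells. LSK cells carry no lineage markers but do carry Sca-1 and c-Kit, and they hold the stem cells and the multipotent progenitors. The LK fraction lacks Sca-1 and retains c-Kit, and its progenitors are already committed to the erythroid, megakaryocytic and granulocyte-macrophage lines. Commitment to the red cell line runs through the transcription factors Gata1 and Klf1, which switch on the genes of heme, globin and the red cell membrane.

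Estimated read totals were between 1.68085e+07 and 2.5803e+07 per library, with 2.18526e+07 in LK. On the log2 scale over the 8029 genes, the LK library correlated at r = 0.827, 0.812 and 0.899 with LSK replicates 1, 2 and 3, and LSK pairs correlated at 0.907 to 0.937. These points are genes of the same libraries and not independent. The genes for ribosomal proteins took 14.3% of the LK count values, and 13.6%, 4.78% and 14.4% of those of the LSK libraries. LSK replicate 2 was thus low in these genes, and LSK replicate 3 was low in immediate-early genes such as Fos and Jun, as LK was. The 3 LSK libraries therefore differed among themselves, by 2-fold or more in 2702 of the genes compared (33.7%). Each result is given against their range, and the LSK values always stand in the order of replicates 1, 2 and 3.

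The sort antigens and marker genes were read first. Ly6a (Entrez 110454; chromosome 15, 74994877 to 74998031), which encodes Sca-1, stood at 0.321 FPKM in LK against 56.8, 34.3 and 26.4 FPKM in LSK. In estimated reads these were 7 in LK (exact Poisson 95% interval 2.81 to 14.4, counting error only) against 956, 800 and 777. All 3 LSK libraries lay far above LK, and the lowest was 82.5-fold higher. Ptprc, which encodes CD45, stood at 10.9 FPKM against 12.8, 17.5 and 26.6, below the LSK libraries and not called. Kit, the gene for c-Kit, stood at 30.5 FPKM in LK, inside the LSK values of 29.0, 56.6 and 36.5 FPKM. The RNA of the antigen that separates the labelled populations thus differed, and that of the antigen they share did not leave the LSK range.

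Among the lineage antigens, Itgam, which encodes the myeloid antigen CD11b, was at 1.07 FPKM in LK and 5.05, 6.71 and 5.09 FPKM in LSK. LK lay below all 3 LSK libraries. Of the 10 sort antigens listed, 5 were above the 5 FPKM limit, 4 were under it and 1 was not analysed here.

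The 6 marker genes were picked for this comparison, so their lack of overlap between LK and LSK is a description and not a separate result. Of all genes compared, 36.5% lay above all 3 LSK libraries and 27.8% below them. Hba-a1, an alpha-globin gene (Entrez 15122; chromosome 11, 32283672 to 32284486), was at 663 FPKM in LK and 79.5, 5.07 and 4.91 FPKM in LSK, a mean of 29.8 ± 43.0 (SD, n = 3). Elane, the neutrophil elastase gene (Entrez 50701; chromosome 10, 79886312 to 79888216), was at 392 FPKM against 21.3, 12.6 and 15.0. Both were higher in LK than in any LSK library, but the LSK values of Hba-a1 spread widely, with replicate 1 far above the other two. Sox18, an endothelial transcription factor gene (Entrez 20672; chromosome 2, 181669837 to 181671640), was at 0.470 FPKM in LK and 54.1, 34.0 and 17.9 FPKM in LSK. Ltb, the lymphotoxin beta gene (Entrez 16994; chromosome 17, 35194507 to 35196305), was at 0.398 FPKM against 281, 157 and 30.6. The lowest LSK library was 38.1-fold above LK for Sox18 and 76.8-fold above it for Ltb, both resting on under 10 LK reads. Coordinates are those of RefSeq on GRCm38.

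**Figure D1:**
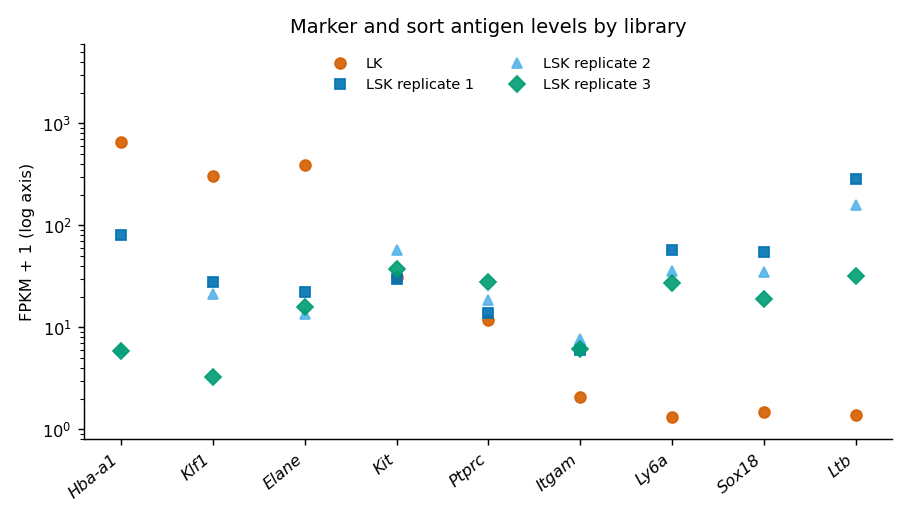
FPKM + 1 on a log axis for the marker genes and 4 sort antigens in the LK library (circles) and the 3 LSK libraries (other symbols), each point 1 library. Hba-a1, Klf1 and Elane lie above all LSK points, Ly6a, Sox18, Ltb and Itgam below them, and Kit among them.

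Over all genes compared, 347 were higher in LK (4.32%) and 533 lower (6.64%). The other 7149 lay within 2-fold of the LSK range. At 4-fold the counts were 90 and 125, and at 8-fold 37 and 21. On the deposited count values, scaled to equal library totals and not corrected for gene length, 228 were higher and 671 lower, so the share of calls that were higher went from 39.4% to 25.4%. Of the calls on FPKM, 225 of 347 and 523 of 533 were among them. The median of all genes, LK minus LSK mean, was 0.15 on the log2 scale of FPKM and -0.08 on that of count values, a shift of -0.23. Against LSK replicate 3 alone, 638 genes were higher (7.95%) and 726 lower (9.04%). That replicate limited the counts: without it, 683 genes were higher and 881 lower.

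**Figure D2:**
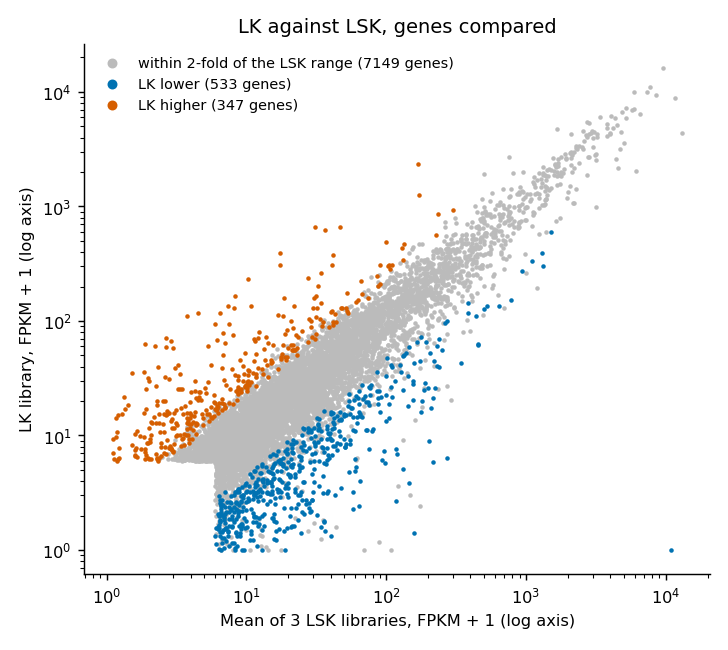
The LK library against the mean of the 3 LSK libraries, FPKM + 1 on log axes, each point 1 of the 8029 genes compared. The 347 genes called higher lie above the main band and the 533 called lower below it, and the grey points outside the band are genes whose LSK libraries spread too far for a call.

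The 10 genes farthest above the LSK range were Ermap, Car1, Atp1b2, Cldn13, Rhd, Elane, 2510003D18Rik, Pklr, Tspo2 and Icam4. Ermap, an erythroblast membrane protein gene (chromosome 4, 119175457 to 119190013), was at 61.4 FPKM in LK and 1.27, 1.30 and 0.0760 in LSK, 47.4-fold above the highest LSK library. Car1, a red cell carbonic anhydrase (chromosome 3, 14766214 to 14808365), was at 69.9 FPKM against 2.04, 2.19 and 0.760. Cldn13, a claudin gene, was at 109 FPKM against 4.32, 3.88 and 0, and Atp1b2, a sodium pump subunit, at 58.9 FPKM against 1.34, 1.77 and 0.588. Elane is the 1 granulocyte gene among these 10, and Ermap, Car1, Rhd, Pklr, Tspo2 and Icam4 are known from red cells and their precursors.

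The 10 genes farthest below the range were Hist1h2ap, Ltb, Ly6a, Mfap2, Sox18, Esam, Lax1, Ramp2, Tbxa2r and Procr. Hist1h2ap was listed at 0 in LK and at 27040.4, 4324 and 1417 FPKM in LSK, and as a histone gene with near-identical copies its value is uncertain. Ramp2, a receptor partner of blood vessel cells, was at 3.01 FPKM against 98.9, 44.7 and 48.8. Tbxa2r, the thromboxane receptor of platelets and vessels, was at 0.778 FPKM against 52.3, 34.0 and 19. Lax1, an adaptor of lymphocyte receptors, was at 0.575 FPKM against 18.1, 24.0 and 17.9, and Mfap2, a matrix microfibril protein, at 1.03 FPKM against 42.5, 25.4 and 25.4. No LSK library overlapped LK in any of these genes, which is what the ranking required.

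Genes were then read by lists of lineage and pathway members. For each list the count past the 2-fold call is set beside 4.32% higher and 6.64% lower among all genes, and the median, LK minus LSK mean on log2(FPKM + 1), beside 0.15. The members were not chosen independently of these data, and a share above the background is a description of the list in these libraries. A gene under 5 FPKM in LK entered the comparison through the LSK mean alone, and one under 5 FPKM in the LSK mean through LK alone, so the direction of such members was largely fixed by the limit.

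**Figure D3:**
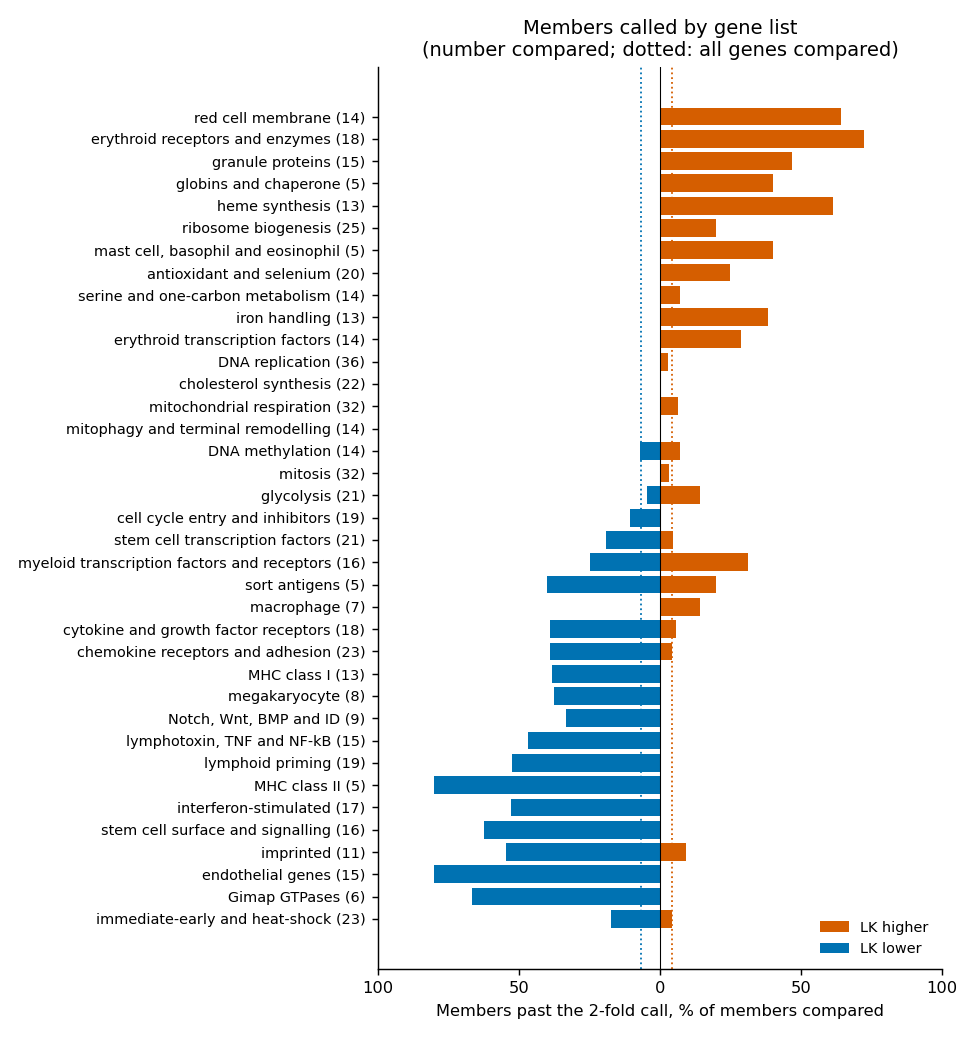
Share of the compared members of each list called higher (right) or lower (left) in LK, in percent, for lists with at least 5 members compared, ordered by their median difference. Dotted lines mark 4.32% and 6.64%, the shares among all 8029 genes. Erythroid and granule lists extend to the right and endothelial, MHC class II, Gimap and stem cell surface lists to the left.

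Among 14 erythroid transcription factor genes compared, 4 were higher and 0 lower. Gata1 (Entrez 14460; chromosome X, 7959260 to 7976663) was at 133 FPKM in LK and 8.01, 9.18 and 2.09 FPKM in LSK, 14.5-fold above the highest. Klf1 (Entrez 16596; chromosome 8, 84901982 to 84905291) was at 307 FPKM against 27.1, 20.1 and 2.25, 11.3-fold above the highest. Tal1, their partner in erythroid complexes, was at 25.5 FPKM against 10.5, 6.04 and 9.86, and Gfi1b, a repressor needed for red cells and platelets, at 128 FPKM against 57.0, 51.1 and 34.2. These 4 left the LSK range upward. Several factors shared with stem cells did not: Lmo2 was at 183 FPKM against 284, 353 and 236, Nfe2 at 70.3 against 119, 193 and 95.6, and Zfpm1, the Gata1 cofactor, at 13.0 inside 48.6, 22.8 and 4.49. The list median was 0.51.

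The promoters of 4 erythroid genes and of Elane are shown as examples of genes called higher in LK. They are RefSeq sequences of GRCm38.p6, 250 bases before to 50 bases after the transcript start, read 5′ to 3′ on the strand of the gene. Capitals mark matches, on either strand, to AGATAA or TGATAA (the site bound by GATA factors), CCNCNCCC (bound by Klf1 and its relatives; matches that overlap run together) or GAGGAAGT (bound by Spi1).
Klf1, chr8:84901732-84902031, plus strand: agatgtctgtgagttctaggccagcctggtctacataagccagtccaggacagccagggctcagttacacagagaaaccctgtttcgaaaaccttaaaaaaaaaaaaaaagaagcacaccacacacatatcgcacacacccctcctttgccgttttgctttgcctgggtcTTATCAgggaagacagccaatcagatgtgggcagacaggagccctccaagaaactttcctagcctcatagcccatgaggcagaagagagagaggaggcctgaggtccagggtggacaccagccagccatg
Epor, chr9:21963527-21963826, minus strand: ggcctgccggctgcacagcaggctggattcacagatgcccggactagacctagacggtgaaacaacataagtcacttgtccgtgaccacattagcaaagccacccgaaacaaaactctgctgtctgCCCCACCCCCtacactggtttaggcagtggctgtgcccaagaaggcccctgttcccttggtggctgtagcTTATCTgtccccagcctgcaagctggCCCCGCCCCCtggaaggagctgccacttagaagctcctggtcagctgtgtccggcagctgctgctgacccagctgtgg
Rhag, chr17:40810899-40811198, plus strand: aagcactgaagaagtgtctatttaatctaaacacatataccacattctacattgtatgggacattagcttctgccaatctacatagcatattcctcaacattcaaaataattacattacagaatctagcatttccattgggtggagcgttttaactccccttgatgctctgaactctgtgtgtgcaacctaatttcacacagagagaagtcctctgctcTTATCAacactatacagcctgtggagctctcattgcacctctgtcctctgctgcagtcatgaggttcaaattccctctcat
Rhd, chr4:134864286-134864585, plus strand: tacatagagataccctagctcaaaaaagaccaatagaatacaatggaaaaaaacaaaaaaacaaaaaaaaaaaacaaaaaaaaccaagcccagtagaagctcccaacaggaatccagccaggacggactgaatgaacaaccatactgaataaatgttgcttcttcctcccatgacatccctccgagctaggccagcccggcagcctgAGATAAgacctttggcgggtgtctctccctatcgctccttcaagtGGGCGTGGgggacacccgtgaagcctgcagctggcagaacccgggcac
Elane, chr10:79886062-79886361, plus strand: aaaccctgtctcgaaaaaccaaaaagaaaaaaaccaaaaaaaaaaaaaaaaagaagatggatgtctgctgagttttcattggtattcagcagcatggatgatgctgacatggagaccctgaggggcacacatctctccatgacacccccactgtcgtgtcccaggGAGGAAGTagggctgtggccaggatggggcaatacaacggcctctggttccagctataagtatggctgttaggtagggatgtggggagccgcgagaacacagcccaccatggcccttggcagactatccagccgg

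In Klf1 the TGATAA match starts 80 bases before the transcript start, in Rhag 31 bases before it, and both lie on the opposite strand. The AGATAA matches start 54 bases before the start in Epor, on the opposite strand, and 43 before it in Rhd. Epor also holds 4 CCNCNCCC matches in 2 separate pairs, each pair overlapping, and Elane a GAGGAAGT match 85 bases before its start. A match is a description of the letters and not of a bound factor.

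The share of promoters with these letters was counted over all windows of the same length. A GATA site (AGATAA or TGATAA) was found in 43.2% of the 44 promoters of the 33 erythroid-list genes called higher that had a RefSeq promoter. The share was 14.9% over all genes called higher, 10.1% over those called lower, 10.1% over all genes compared and 18.6% over all promoters in the table. CCNCNCCC was found in 68.2% of the erythroid-list promoters, against 67.6% among genes compared and 49.5% among all promoters. GAGGAAGT was found in 0 of the 44, against 3.26% among genes compared and 3.2% among all promoters. Its share was 3.96% over all genes called higher and 5.47% over those called lower. The erythroid-list promoters were therefore richer in GATA letters than the genes compared, and had about the same share of CCNCNCCC. All the erythroid promoters printed above hold a GATA site, while most of the 44 do not.

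Of 18 erythroid receptors, enzymes and other red cell genes compared, 13 were higher and 0 lower, with a median of 2.78. Epor, the erythropoietin receptor, was at 67.4 FPKM in LK and 8.89, 5.22 and 1.38 FPKM in LSK. Blvrb, a biliverdin reductase, was at 659 FPKM against 82.0, 34.7 and 21.3, and Pklr, the red cell pyruvate kinase, at 34.9 against 1.11, 1.27 and 0.217. LSK replicate 3 was the lowest of the LSK libraries in all 3 of these genes. Car2, another carbonic anhydrase, was already at 291, 383 and 221 FPKM in LSK and reached 923 FPKM in LK. Tspo2, a cholesterol-binding membrane protein of erythroid cells, was at 57.8 FPKM against 2.95, 2.02 and 0.0519, and Hemgn, a nuclear protein of blood progenitors, at 24.3 against 2.15, 3.39 and 1.94. The metallothionein genes, whose proteins bind zinc and copper, were among the most abundant of those called: Mt2 at 627 FPKM against 85.1, 16.2 and 4.62, and Mt1 at 2346 FPKM against 332, 67.2 and 108.

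The heme synthesis genes compared stood above the LSK range. Of 13 genes compared, 8 were higher, 0 were lower, and all 13 had their LK value above all 3 LSK libraries (36.5% of all genes did), with a median of 1.52. Cpox, which makes protoporphyrinogen, was at 133 FPKM in LK and 11.2, 13.7 and 4.58 in LSK. Fech, which inserts the iron, was at 38.0 FPKM against 3.95, 10.2 and 2.78. Among these enzymes Cpox was 9.71-fold above its highest LSK library, the widest distance of the pathway. Alad, the second enzyme, was at 82.6 FPKM against 23.4, 17.6 and 14.3, and Uros at 26.7 against 7.01, 12.4 and 9.15. Steps short of the call included Urod, at 214 FPKM against 142, 96.4 and 66.0, and Ppox, at 32.8 against 17.9, 17.5 and 17.8. The first step differed between its isozymes. Alas1, the form of most tissues, was at 40.7 FPKM against 13.0, 26.2 and 18.7, above the range and not called, and Alas2, the erythroid form, was under the limit at 1.84 FPKM against 0.520, 0.0225 and 0.141.

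**Figure D4:**
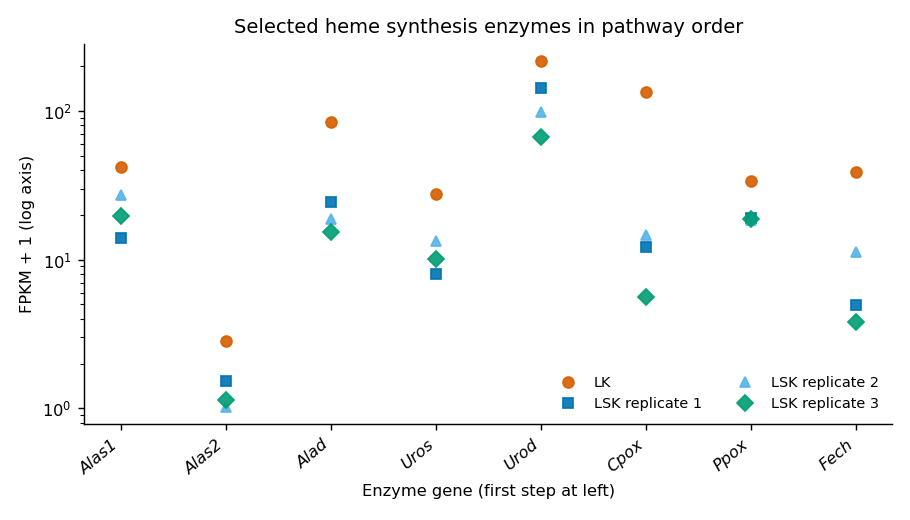
FPKM + 1 on a log axis for enzymes of heme synthesis in pathway order, with 1 point per library. The LK point lies above the 3 LSK points at each enzyme shown, by most at Cpox, and Alas2 stays near the foot of the axis in all 4 libraries.

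The carriers of heme and iron moved in part. The mitochondrial transporters Abcb10, at 12.5 FPKM against 2.83, 3.25 and 2.35, and Slc25a38, which brings in glycine, at 60.3 against 24.2, 21.0 and 16.5, were higher. Slc25a37, the mitochondrial iron importer, was at 13.7 FPKM against 4.07, 3.0 and 8.04 and was not called. Of 13 iron-handling genes, 5 were higher and 0 lower, with a median of 0.57. Tfrc, the transferrin receptor, was at 40.3 FPKM in LK and 4.03, 4.13 and 5.71 FPKM in LSK, and Steap3, which reduces iron in the endosome, at 62.6 against 4.19, 4.53 and 9.26. Slc11a2, the endosomal iron carrier, was at 19.3 FPKM against 2.39, 6.18 and 2.54. These uptake genes were higher, and so was the iron exporter Slc40a1, at 9.77 FPKM against 0.694, 3.86 and 0.145. The ferritin genes that store iron were not called. Fth1 was at 2819 FPKM against 2795, 1739 and 1864 and Ftl1 at 4479 against 7261, 3215 and 3833. On scaled count values 3 of the 13 were higher.

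Red cell membrane genes gave the highest median of the lists with 5 or more members compared, 3.18. Of 14 compared, 9 were higher and 0 lower. Rhag and Rhd, of the Rhesus complex, were at 65.3 and 115 FPKM in LK, against 1.92, 3.74 and 0.0340 FPKM and 5.28, 4.35 and 0.994 FPKM in LSK. Kel, a blood group peptidase, was at 16.2 FPKM against 0.495, 0.541 and 0, and Add2, a cytoskeletal adducin, at 30.7 against 1.52, 1.34 and 0.0718. Icam4, an adhesion molecule of red cells, was at 165 FPKM against 10.3, 6.09 and 5.40, and Ank1, the ankyrin that anchors the membrane, at 6.74 against 0.450, 0.240 and 0.00592. In each of these 6 genes LSK replicate 3 was the lowest library, under 1 FPKM except in Icam4. Xk, the partner of Kel, was at 5.75 FPKM against 2.03, 2.49 and 1.84, just short of the call. In bulk RNA a larger share of erythroid cells and more RNA per cell cannot be told apart, here or in any list.

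The globins were less even. Of 5 compared, Hba-a1 and Hbb-bs were higher, Hbb-bs at 232 FPKM against 19.4, 1.10 and 7.43. Hba-a2 was at 99.0 FPKM against 59.2, 35.7 and 8.01. Hbb-b1, at 137 FPKM, lay inside its LSK values of 178, 56.8 and 56.7, and so did Hbb-b2, at 267 FPKM with 335, 98.6 and 190.3 in LSK. LSK replicate 1 exceeded LK in Hbb-b1 and Hbb-b2, and without it 4 of the 5 were higher. The globin copies are near-identical, so their single values are uncertain, and their summed FPKM was 1401 in LK and 675, 199 and 268 in LSK. The embryonic globins Hbb-bh1 and Hbb-y were under the limit in LK, at 1.86 and 0.964 FPKM.

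The megakaryocyte genes compared did not follow the erythroid genes. Of 8 compared, 0 were higher and 3 lower, with a median of -0.94. Gp9, a platelet glycoprotein, was in LK at 8.11 FPKM against 57.7, 31.8 and 30.1, and Pf4, platelet factor 4, at 0.994 against 41.0, 11.9 and 5.13. The LSK values of Pf4 ranged widely, with replicate 1 highest. Itga2b, which encodes CD41, was at 8.90 FPKM against 4.58, 5.52 and 5.03, above all LSK libraries and short of the call, and Fli1 was inside the range at 23.8 FPKM against 18.8, 25.1 and 32.7. The 13 members under the limit went both ways. LK lay above all LSK libraries in Gp5, Gp1ba, Itgb3 and Thbs1, and below them in Selp, Ppbp and Vwf. Gp5 was at 2.60 FPKM against 0.851, 1.42 and 0.257, and Selp at 0.248 against 1.71, 2.74 and 1.36.

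The next list was of granule proteins of neutrophils and their precursors. Of 15 compared, 7 were higher and 0 lower, with a median of 2.37. Besides Elane, Ctsg, the cathepsin G gene, was at 128 FPKM in LK and 5.87, 3.96 and 11.8 FPKM in LSK. Ms4a3, a membrane protein of granulocyte-macrophage progenitors, was at 93.3 FPKM against 7.74, 4.77 and 6.86, and Hp, haptoglobin, at 77.5 against 6.58, 4.19 and 6.55. LK stood above all 3 LSK libraries in each of these genes, and the LSK values of Ctsg spread more than those of Ms4a3 and Hp. Mpo and Prtn3, granule genes that begin earlier, were abundant in both: Mpo was at 1411 FPKM against 530.4, 732 and 773, and Prtn3 at 995 against 586, 219 and 690.3, neither called. S100a8, a late calcium-binding protein, was at 260.3 FPKM against 68.0, 17.9 and 13.1, and Lyz2, lysozyme of monocytes and neutrophils, was below all LSK libraries and uncalled, at 46.5 against 100.3, 169.8 and 59.2. Among the 8 members under the limit, LK was below all LSK libraries in Padi4 and Ltf. Padi4 was at 0.656 FPKM against 3.76, 3.12 and 2.33, and Ltf at 0.0175 against 0.705, 1.80 and 0.522. LK was above them in Mmp8 and in Lyz1, at 2.46 FPKM against 0.326, 0.912 and 1.52.

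Myeloid transcription factors and receptors split. Of 16 compared, 5 were higher and 4 lower, with a median of -0.57. Cebpe and Cebpa, which drive granulocyte development, were at 24.3 and 13.3 FPKM in LK, against 2.97, 1.63 and 2.05 and 2.01, 1.95 and 4.95 FPKM in LSK. Fcgr3, an Fc receptor used to define granulocyte-macrophage progenitors, was at 42.8 FPKM against 14.2, 18.2 and 10.4. Spi1, which encodes PU.1, was at 38.5 FPKM against 385, 250.5 and 81.9, and Csf3r, the G-CSF receptor, at 7.74 against 17.4, 30.1 and 17.6. The lower call of Spi1 was narrow against replicate 3 and wide against the other libraries; without replicate 3, 8 of the 16 were lower. On scaled count values 3 were higher and 3 lower. Irf8, a monocyte and dendritic cell factor, stayed inside the range at 18.0 FPKM against 12.1, 13.7 and 22.4. Of 5 mast cell, basophil and eosinophil genes compared, Cpa3, mast cell carboxypeptidase, was higher at 49.3 FPKM against 3.61, 4.13 and 9.77, and so was Hdc, which makes histamine, at 28.2 against 2.65, 6.65 and 3.63.

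The genes lower in LK included many that mark stem cells. Of 21 stem cell transcription factor genes compared, 4 were lower and 1, Tal1, higher, with a median of -0.53. Hlf, a factor of fetal and adult stem cells, was at 1.33 FPKM in LK and 15.6, 15.7 and 21.2 FPKM in LSK. Mycn was at 5.13 FPKM against 59.7, 140.1 and 78.2, and Nkx2-3, a homeobox gene, at 0.215 against 22.1, 16.9 and 7.14. These were low in LK alone, while Gata2, at 24.7 FPKM against 33.4, 41.0 and 23.5, and Runx1, at 11.7 against 16.3, 11.2 and 18.7, stayed inside the LSK range. LK lay below all 3 LSK libraries in 9 of the 21 and above them in 5 (27.8% and 36.5% of all genes compared). Those above included Mllt3, at 9.55 FPKM against 4.06, 3.84 and 4.76, and Lin28b, at 8.61 against 4.02, 2.79 and 5.41, neither called. Without LSK replicate 3, 3 members of this list were higher.

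Stem cell surface and signalling genes were lower more often, 10 of 16, with 0 higher and a median of -1.75. Procr, which encodes the receptor EPCR used to sort stem cells, was listed at 0 in LK and at 22.9, 20.9 and 9.77 FPKM in LSK. Esam, an adhesion molecule, was at 0.762 FPKM against 43.9, 40.7 and 20.3. Cdkn1c, which encodes the cell cycle inhibitor p57, was at 1.99 FPKM against 51.7, 54.0 and 21.2. The LSK libraries held 511, 670 and 364 estimated reads of Procr, and LK none, which allows up to 3.69 reads at 95% (exact Poisson). Cd27, a TNF receptor of multipotent progenitors, was at 17.7 FPKM against 106, 91.9 and 111, and Cd34 at 94.6 against 194, 361 and 236. Abcg2, a transporter that stem cells use to pump out dyes, was at 20.5 FPKM against 7.92, 15.7 and 10.1, above the range and not called.

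Of the Hox A and B genes, 4 reached the limit. Hoxa9, Hoxa10 and Hoxa5 did so through the LSK mean alone, which largely fixed their direction, and Hoxa7 was above it in LK too. Hoxa9, which supports the growth of immature cells, was at 2.18 FPKM in LK and 28.2, 50.8 and 23.5 FPKM in LSK. Hoxa10 was listed at 0 against 6.54, 11.7 and 7.48 FPKM, Hoxa7 was at 5.41 against 47.2, 31.6 and 35.0, and Hoxa5 at 0.233 against 16.0, 6.80 and 5.88. Each of the 4 was past the 2-fold call and is from the A cluster, and the 17 other Hox A and B genes were under the limit. Hoxb4 was at 0.310 FPKM in LK and 1.74, 0.920 and 2.56 FPKM in LSK, and Hoxb2 was listed at 0 against 5.19, 4.25 and 1.17 FPKM.

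Endothelial genes, several of which fetal stem cells also express, were lower in 12 of 15 compared, with 0 higher and a median of -2.33. The list shares Esam, Procr, Robo4, Eng and Cd34 with the stem cell surface list. Emcn, endomucin, was at 0.626 FPKM in LK and 23.5, 23.1 and 15.7 FPKM in LSK, and Tie1, a receptor kinase of vessels, at 1.91 against 22.8, 19.2 and 15.1. Robo4, a vessel guidance receptor, was at 0.0423 FPKM against 8.33, 8.09 and 5.49. In these genes the LSK libraries lay together and LK apart. Pecam1 and Icam2, which blood cells carry more widely, were not called, at 7.29 FPKM against 11, 14.5 and 9.97 and 68.8 against 96.0, 60.4 and 79.4.

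Genes of early lymphoid priming were lower in 10 of 19 compared, with 0 higher and a median of -1.51. Flt3, the receptor kinase of lymphoid-primed multipotent progenitors (chromosome 5, 147330741 to 147400489), was at 6.56 FPKM in LK and 102, 69.5 and 49.8 FPKM in LSK, 7.60-fold under the lowest. Lck, a kinase of the T cell receptor, was at 0.999 FPKM against 7.70, 10.2 and 13.1. The chemokine receptor Ccr9, which guides progenitors to the thymus, was at 0.788 FPKM against 4.99, 5.92 and 5.61, and Ccr7 at 0.0834 against 7.69, 8.46 and 3.21. Lsp1, a leukocyte actin-binding protein, stayed abundant at 42.1 FPKM but was at 431, 290.1 and 296 FPKM in LSK. Notch1, which directs T cell fate, was at 3.30 FPKM against 12.4, 7.42 and 15.2, just short of the call.

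The Gimap genes encode GTPases that support lymphocyte and stem cell survival. All 6 compared lay below the LSK range (27.8% of all genes did), 4 of them past the call, with a median of -2.57. Gimap6 was at 16.5 FPKM in LK and 188, 267 and 168 FPKM in LSK, and Gimap1 at 24.8 against 242, 183 and 170.0. Gimap5 was at 3.60 FPKM against 30.2, 28.0 and 27.6, with 3 LSK values that hardly differed.

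Of 18 receptors for cytokines and growth factors compared, Epor was higher and 7 were lower, with a median of -0.74. Besides Flt3 and Csf3r, the lower genes included Il21r, Il2rg, Il4ra and Tgfbr2. Tgfbr2, a TGF-beta receptor, was at 2.56 FPKM in LK and 7.23, 9.69 and 7.83 FPKM in LSK. Il2rg, the common gamma chain of several interleukin receptors, was at 32.2 FPKM against 84.1, 131 and 79.2, so it was lower but still present. Among 23 chemokine receptor and adhesion genes, 9 were lower and 1 higher, with a median of -0.79. Cxcr3, a receptor of activated lymphocytes, was at 0.242 FPKM against 17.3, 17.9 and 9.30. Cxcr2, a chemokine receptor of neutrophils, was the member called higher, at 164 FPKM against 35.1, 6.56 and 50.4, and without replicate 3, 3 members were higher. Of 9 genes of the Notch, Wnt, BMP and ID pathways, Smad6, Id2 and Id3 were lower. Id3, an inhibitor of E proteins, was at 25.5 FPKM against 125, 74.1 and 122, while Id1 was inside its range at 73.4 FPKM against 89.6, 37.4 and 75.0.

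Genes of antigen presentation and of the interferon response were read next. Of 17 interferon-stimulated genes compared, 9 were lower and 0 higher, with a median of -1.74. Irf7, a factor that amplifies interferon, was at 2.95 FPKM in LK and 17.4, 17.5 and 16.2 FPKM in LSK. Ifitm3, a membrane restriction factor, was at 152 FPKM against 1218, 387 and 747, and Isg15, a ubiquitin-like modifier, at 6.73 against 41.2, 19.8 and 42.6. Every LSK library held these 3 genes above LK. Of 13 MHC class I genes, 5 were lower and 0 higher, with a median of -0.79: H2-K1, the classical heavy chain, was at 64.7 FPKM against 181, 162 and 150.2, and Psmb9, an immunoproteasome subunit, at 29.1 against 239.9, 121 and 103. B2m, the light chain, was at 303 FPKM against 470.1, 615 and 496 and not called. Of 5 MHC class II genes 4 were lower, Cd74, the invariant chain, at 0.438 FPKM against 10.6, 7.88 and 4.06.

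The lymphotoxin, TNF and NF-kB list had 7 lower and 0 higher of 15, and all 15 lay below the LSK range (27.8% of all genes did). Tnf was at 0.902 FPKM in LK and 21.1, 18.0 and 4.52 FPKM in LSK, and the chemokine gene Ccl4 at 2.88 against 269, 140.0 and 27.8. Tnfrsf1a, the main TNF receptor, was at 22.0 FPKM against 55.7, 54.8 and 47.9. LSK replicate 3 was the lowest LSK library in Ltb, Ccl4 and Tnf by a wide margin and was close to the others in Tnfrsf1a. The inhibitor Nfkbia, itself an early target of NF-kB, was at 24.3 FPKM against 179, 96.3 and 39.3.

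The choice of LSK library decided the immediate-early and heat-shock genes. Fos was at 1.41 FPKM in LK and 237, 278 and 2.09 FPKM in LSK, so LK stood beside replicate 3 and far from replicates 1 and 2. Klf2, a factor of resting lymphocytes and vessels, was at 0.165 FPKM against 146, 117 and 0.708, and Dusp1, a phosphatase of MAP kinases, at 2.03 against 100.1, 339 and 3.39. Of 23 genes compared, 4 were lower (Dusp2, Jund, Zfp36 and Jun) and 1 higher (Hsph1), and without replicate 3, 20 were lower. On scaled count values 9 were lower and 0 higher. The median was -2.58 against the LSK mean and -0.55 against replicate 3. Dusp2, a phosphatase of lymphocytes, was lower against each library, at 8.0 FPKM against 305, 269 and 34.4.

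Over all genes, 1133 were higher in LK against the mean of LSK replicates 1 and 2 (14.1%) and 1221 lower (15.2%). Of these, 673 and 583 were within 2-fold of replicate 3. Conversely, 291 genes were higher and 193 lower against replicate 3 and not against the range. The contrasts share the LK library, so their calls are not independent. Tgfb1, which encodes a growth-restraining cytokine, was among the genes that differed most, at 2.63 FPKM against 193, 165 and 2.91. The genes that differed most in the other direction were Gm9846, Rpl34-ps1, Rn4.5s, Ndufs5 and Pigr. Ndufs5, a subunit of respiratory complex I, was at 420.1 FPKM against 92.2, 21.0 and 341, and Pigr, an antibody transporter, at 5.42 against 0.231, 0.0294 and 7.49. In both, LK was near replicate 3 and above the other libraries.

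**Figure D5:**
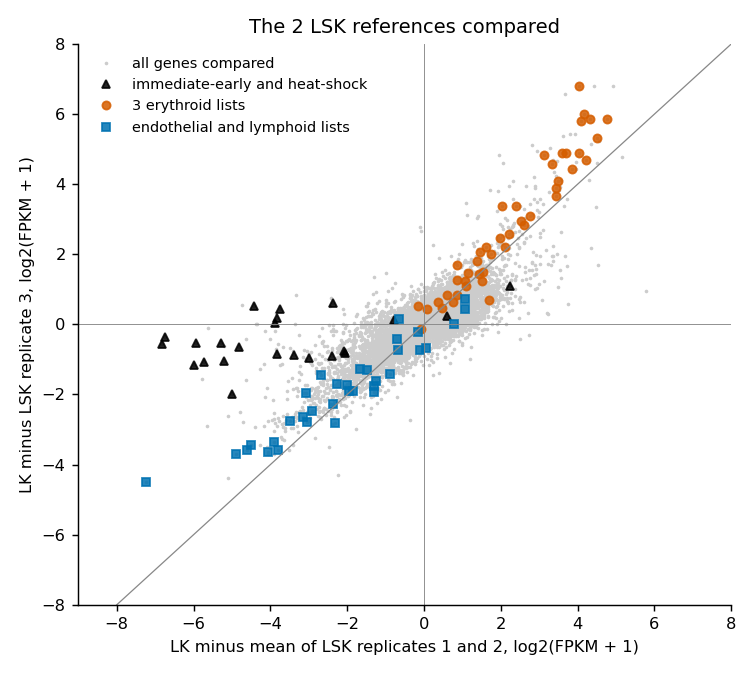
Difference of LK from LSK replicate 3 (vertical) against its difference from the mean of LSK replicates 1 and 2 (horizontal), log2(FPKM + 1), each point 1 gene, with the line of equality. Immediate-early and heat-shock genes (triangles) lie mostly near 0 on the vertical axis and far to the left, with medians of -0.55 against replicate 3 and -2.58 against the mean of all 3 LSK libraries. Both axes contain the LK value. Erythroid genes (circles) lie mostly in the upper right, and endothelial and lymphoid genes (squares) mostly in the lower left.

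Each call against the range is by construction also a call against replicate 3, and the size of the difference was read against both. Klf1 exceeded replicate 3 by 6.56 on the log2 scale and the nearest LSK library by 3.45. For Epor the same differences were 4.84 and 2.79, for Rhag 6.00 and 3.81, and for Mt2 6.80 and 2.87. Among granule genes they were 4.62 and 4.14 for Elane, 3.34 against both for Ctsg, 4.21 and 1.92 for S100a8 and 3.80 and 1.45 for Fcnb. Of the stem and vessel genes, some had replicate 3 as their nearest library, so that Esam (log2 difference -3.59), Procr (-3.43), Sox18 (-3.69) and Hoxa9 (-2.95) had the same value in both readings. Others were nearer to replicate 1 or 2: Hlf differed by -3.25 from replicate 3 and by -2.83 from the nearest library, and Mycn by -3.69 and -3.31.

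Few genes of growth and division were called. Of 36 DNA replication genes 1 was higher and 0 lower, with a median of 0.36, and of 32 mitosis genes 1 was higher and 0 lower, with a median of 0.10 that was -0.13 on scaled count values. Orc6, of the origin complex, was at 116 FPKM in LK and 45.4, 55.9 and 56.7 FPKM in LSK, and Hmmr, a spindle protein, at 36.7 against 13.3, 16.8 and 17.4. Both were close to the 2-fold limit and neither was called on count values. Without LSK replicate 2, 3 replication genes and 2 mitosis genes were higher, and without replicate 3, 2 and 3. In the list of cell cycle entry and inhibitor genes the 2 lower members of 19 were Mycn and Cdkn1c, and without replicate 3 there were 4. Ccne1, cyclin E1, was at 48.7 FPKM against 12.1, 25.4 and 10.2, short of the call.

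Genes of ribosome building were above the LSK range in 23 of 25 compared (36.5% of all genes were), with 5 higher and a median of 0.89. Ncl, nucleolin, was at 429 FPKM in LK and 85.8, 104 and 199 FPKM in LSK, and Ddx21, a nucleolar helicase, at 104 against 22.1, 16.6 and 42.8. Replicate 3 was the nearest library for most of these genes: without it 11 were higher, and on scaled count values 0 were. The 83 ribosomal protein genes had 1 higher and 0 lower, with a median of 0.71.

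Of 22 cholesterol synthesis genes 0 were called in either direction, and of 14 mitophagy and remodelling genes 0. Of 32 mitochondrial respiration genes 2 were higher, and none were on count values. In glycolysis 3 of 21 were higher and 1 lower: Eno1, enolase, was at 466 FPKM against 67.9, 155 and 179, and Ldhb, a lactate dehydrogenase subunit, at 10.2 against 54.3, 61.1 and 55.7. The lactate carriers Slc16a1 and Slc16a3 were higher, at 37.7 and 44.7 FPKM against 5.31, 14.6 and 13.3 and 15.9, 17.2 and 4.56. In serine and one-carbon metabolism Mthfd2, a mitochondrial folate enzyme, was higher at 98.0 FPKM against 23.1, 24.5 and 35.7, 1 of 14, and without LSK replicate 2, 4 were higher. Antioxidant genes had 5 higher of 20 with a median of 0.84, among them Prdx3, a mitochondrial peroxidase, at 246 FPKM against 75.1, 103 and 77.0.

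Imprinted genes, expressed from 1 parental copy, were lower in 6 of 11 compared and higher in 1, with a median of -2.28. Igf2, a fetal growth factor, was at 0.402 FPKM in LK and 44.1, 11.6 and 14.9 FPKM in LSK, and H19, its neighbouring noncoding RNA, at 6.88 against 74.0, 20.8 and 55.2. Grb10, an adaptor that restrains growth factor signals, was the member higher, at 31.8 FPKM against 8.11, 8.46 and 6.68. Among 14 DNA methylation genes, Gadd45a was higher and Dnmt3b lower, with a median of 0.13 that was -0.12 on scaled count values, where Gadd45a was not called. Without LSK replicate 1 or 2, 2 were higher. Dnmt3b, a de novo methyltransferase, was at 38.8 FPKM against 90.1, 114 and 122. Uhrf1, the gene deleted elsewhere in the study, was at 116 FPKM in LK, next to 113 in LSK replicate 3 and above 63.0 and 66.8 in replicates 1 and 2, and its partner Dnmt1 was inside the range at 63.2 FPKM against 56.9, 35.5 and 79.4.

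Markers of other fetal liver cells were read across the same libraries. Macrophage markers summed to 364 FPKM in LK and 1086, 579 and 362 FPKM in LSK, mostly from Apoe, at 306 FPKM against 890.4, 429 and 324. The defining complement genes C1qa, C1qb and C1qc were at 0.0557, 0.260 and 0.455 FPKM in LK and near 0 in LSK replicate 3. They reached 26.3, 67.0 and 53.2 FPKM in replicate 1 and 11.6, 31.4 and 27.1 FPKM in replicate 2. RNA of these complement genes thus moved with the split between replicate 3 and the other LSK libraries. Cd68, another marker of the list, did not, at 7.05 FPKM in LK and 8.98, 14.2 and 14.1 FPKM in LSK. The part of macrophage RNA in the calls was not tested. The macrophage member called higher was Slc40a1, the iron exporter, also counted with the iron genes and not called on count values. Without replicate 3, 3 macrophage markers were lower. Hepatoblast markers summed to 54.4 FPKM in LK and 102, 107 and 72.2 in LSK, with Alb, albumin, at 2.62 FPKM in LK and 0.278, 0.0743 and 0.886 in LSK. Of the 4 compared, Apoa2 was higher, at 13.8 FPKM against 3.30, 1.20 and 5.16. Dlk1 was lower, at 1.76 FPKM against 38.0, 33.7 and 5.14, and Krt18 and Trf lay below the LSK range and were not called. No stroma marker reached the limit. Of the endothelial genes, Cdh5 was at 0.0372 FPKM in LK and 1.09, 0.873 and 0.542 FPKM in LSK, and Kdr at 0.127 against 0.167, 0.176 and 0.137. RNA of Xist, from the X chromosome, and of the Y-linked gene Ddx3y was present in all 4 libraries, at 5.70 and 5.38 FPKM in LK.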

How the data were processed

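RNA sequencing of 7 libraries was deposited as 1 table of 22680 genes with 2 values per library. FPKM was used as the authors deposited it. The other value is a count per the file headers, but was treated as a scaled count signal, since each library has a smallest step and 98.2% to 98.6% of the low values, not all, are whole multiples of it (tolerance 0.02 steps). TopHat2 2.0.9, Cufflinks 2.1.1 and mm10 are named in the submitters' processing notes, with no roles. How genes were annotated and reads counted, and whether by strand, are details not given in the sources used here. Reads of overlapping genes or of near-identical copies may therefore be shared between them. FPKM and count values of a gene do not keep a fixed ratio across libraries. Dividing the count values by the step gave the estimated reads.

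Samples were grouped by title. On log2(FPKM + 1), the single LK library was compared with the highest and lowest of 3 LSK libraries, with LSK replicate 3 alone and with the mean of replicates 1 and 2, in Python 3.11.15 with pandas 2.3.3, numpy 2.4.6 and scipy 1.17.1, and plotted with matplotlib 3.10.9. No test across genes was run, because LK has 1 library. The pseudocount of 1 FPKM understates the change of low genes. Libraries differed by a median chi-square per gene of 24.4 to 63.4, against 0.455 under sampling noise, so none was a copy of another, which does not show that they came from separate animals.

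Genes named were drawn from the markers and sort antigens, the 10 farthest from the LSK range in each direction, up to 5 called members per list and direction, members of lists with at most 12 compared, the 5 in each direction that differ most between the references, and the 2 on each side of the 5 FPKM limit. Other members, named to complete a pathway or to show genes that were not called, were chosen after their values were seen. The 41 gene lists with 934 entries, and the genes whose promoters are shown, were chosen with earlier results of these data known. Of the genes compared, 7939 matched RefSeq by gene ID and 6474 had a RefSeq promoter. Symbols that look like dates (27) were not named, and a few list members that were counted are not reported by name here. Alternatives were scaled count values, median-of-ratios scaling, other pseudocounts, limits and folds, the LSK mean as reference, and leaving out each LSK library.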

Additional observations from a re-analysis of the deposited data

How the results depend on the processing

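Some choices moved the counts of genes higher and lower by over 1.5 times. Scaled count values gave 228 higher against the range, and 402 genes higher in LK against LSK replicate 3. A pseudocount of 5 FPKM gave 197 and 258 against the range and 379 and 382 against replicate 3. A 1.5-fold call gave 878 and 994, and 1750 and 1357 against replicate 3. A 4-fold call gave 90 and 125, 143 and 166 against replicate 3, and 71 members of the lists called in place of 169. The LSK mean as reference gave 857 and 1017, with 257 list members. Leaving out each LSK library in turn gave 398 to 683 higher, 580 to 881 lower and 184 to 215 list members, the widest counts being those without replicate 3. Median-of-ratios scaling (331 and 545), a pseudocount of 0.1 FPKM (400 and 643) and limits of 1 FPKM (455 and 680) or 10 FPKM (279 and 400) stayed within 1.5 times. Among the genes drawn by the naming rules, no called gene changed direction on scaled count values or with median-of-ratios scaling. Another pseudocount, the LSK mean or a library left out cannot reverse a call against the range. Members named beyond those rules were not checked for direction. The medians of the mitosis and DNA methylation lists and of all genes changed sign on scaled count values, from 0.10 to -0.13, 0.13 to -0.12 and 0.15 to -0.08. Of 1520 values of genes drawn by the rules, 1179 moved by less than the spread of the LSK libraries and 341 by more. Of 1066 counts of list members 153 moved by over 1.5 times. Among low genes Itgam, Pf4, Cd74, Tnf, Ccr7, Ccr9 and Cebpa were short of the 2-fold call with a pseudocount of 5 FPKM. Cycs, Ddx21, Ncl, Nop58, Hmmr and Orc6 were short of it on count values. The cause of these changes was not tested. No paired analysis was possible because the LK library carries no replicate number and has no partner among the LSK libraries.

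Depth limits little here, with a median of 1030 estimated LK reads per gene compared. It bears on the lower genes: 7 of them were listed at 0 in LK, and for these no fold is given. The limits that remain are a single LK library, LSK libraries that differ among themselves, an LK sort that the labels do not describe, and FPKM and count values that shift the median of all genes by -0.23 against each other.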
